A study of Mus musculus with 10 samples.

Results

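The transcripts of 40 genes of DNA replication and mitosis were followed through 10 tumors. The members were given as a list of mouse gene symbols, 15 of S phase and 25 of mitosis, and all 40 were found among the 37417 genes of the count table by matching their Ensembl identifiers. The rule that names them uses no expression value, though the list was chosen with earlier results of these data known. RNA-seq had been carried out on subcutaneous (s.c.) tumors of Panc02, a mouse pancreatic cancer cell line, taken 16 days after injection into the right flank of C57BL/6J mice aged 12 weeks per the labels. The host mice were labelled wild type and received no treatment, and there were 5 tumors of cells with a guide RNA against Cda, which encodes cytidine deaminase (sgCda), and 5 of cells with a nontargeting guide (sgNT). Both cell populations carried a doxycycline-inducible Cas9 nuclease and had been selected after transduction, so the intended difference was the target of the guide. The authors also describe isolating single-cell clones, and whether these tumors grew from clones is not stated. Any other difference between the cell populations cannot be told apart from the effect of the guide. Each library was made from whole tumor tissue, and the tumors grew under the skin and not in the pancreas. The question asked of these genes was whether their transcripts differed between sgCda and sgNT tumors and how they varied from tumor to tumor.

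A dividing cell transcribes these genes in waves. Origins of replication are licensed when Cdc6 and Cdt1 load the Mcm helicase, and they fire in S phase under cyclin E and cyclin A kinases, with E2F factors driving many of the genes involved. Cyclin B with Cdk1 then starts mitosis, in which kinases such as Plk1 and the Aurora kinases build the spindle, the spindle checkpoint holds back the anaphase-promoting complex (APC/C) until every chromosome is attached, and the APC/C ends mitosis by marking cyclins for destruction. Nondividing cells keep most of these transcripts low. In a whole tumor their level therefore reflects dividing cells of any kind, cancer or host, and fewer dividing cells cannot be told apart from less RNA per cell.

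Genes of the mitotic wave are known to be controlled through the letters of the cell cycle homology region (CHR) and through CCAAT boxes, and genes of S phase through E2F sites. RefSeq start sites (build GRCm38.p6) gave a window of 250 bases before the start for 32 of the 40 members and for 27025 genes in all. Counted on both strands, CCAAT was present in 25 of the 32 members (78.1%), in 18 of 20 mitosis genes (90%) and 7 of 12 S phase genes (58.3%), against 37.5% of all genes. A CHR, written as TTTGAA or TTCGAA, was present in 12 members (37.5%), 9 of them mitosis genes (45%) and 3 S phase genes (25%), against 19.6% of all genes, and each of these 12 genes also held CCAAT. An E2F site, written as TTTCCCGC, TTTGGCGC, TTTGCCGC or TTTCGCGC, was present in 4 of 12 S phase genes (33.3%) and 1 of 20 mitosis genes (5%), against 2.16% of all genes. Such a match describes the letters and not the binding of a factor. Mcm7 and Prc1 had more than 1 start site and their windows were searched together. The windows of 2 S phase and 2 mitosis genes are shown because these genes followed the other members most closely among those whose window overlapped no annotated exon. Capitals mark the motifs on either strand, so that ATTGG is CCAAT and TTCAAA is a CHR read from the opposite strand.
Mcm7 (chr5:138171267-138171516, minus strand): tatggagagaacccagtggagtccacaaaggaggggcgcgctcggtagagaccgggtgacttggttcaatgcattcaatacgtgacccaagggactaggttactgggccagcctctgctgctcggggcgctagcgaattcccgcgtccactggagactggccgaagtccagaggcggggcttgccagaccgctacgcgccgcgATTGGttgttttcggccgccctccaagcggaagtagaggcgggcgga
Mcm6 (chr1:128359706-128359955, minus strand): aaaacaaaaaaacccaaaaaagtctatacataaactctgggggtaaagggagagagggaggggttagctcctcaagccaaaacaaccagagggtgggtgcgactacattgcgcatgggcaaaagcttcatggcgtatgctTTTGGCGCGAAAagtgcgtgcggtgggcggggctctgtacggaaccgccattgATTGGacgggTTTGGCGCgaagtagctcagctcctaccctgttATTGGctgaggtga
Bub1b (chr2:118597961-118598210, plus strand): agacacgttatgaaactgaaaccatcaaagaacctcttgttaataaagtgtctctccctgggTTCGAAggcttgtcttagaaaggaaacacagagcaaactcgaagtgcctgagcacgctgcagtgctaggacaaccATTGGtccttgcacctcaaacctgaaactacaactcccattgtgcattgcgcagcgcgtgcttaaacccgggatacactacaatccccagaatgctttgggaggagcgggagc
Top2a (chr11:99024190-99024439, minus strand): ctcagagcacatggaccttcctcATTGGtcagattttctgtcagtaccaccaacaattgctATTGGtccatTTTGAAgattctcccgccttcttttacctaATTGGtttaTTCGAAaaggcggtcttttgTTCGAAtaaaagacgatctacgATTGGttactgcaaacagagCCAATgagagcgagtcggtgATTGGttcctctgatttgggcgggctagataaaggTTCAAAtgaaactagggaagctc
In the Mcm6 window the 3 E2F matches include a pair that overlap on opposite strands. The Top2a window holds 4 CHR and 6 CCAAT matches, the Bub1b window 1 of each, and the Mcm7 window shown, which precedes an inner start site of the gene, a single CCAAT.

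Libraries held 28051907 to 39484964 counts assigned to genes, and the 40 members together took 0.375% to 0.585% of them. Each member was counted at least 446 times in every library. Levels are given as CPM, the count of a gene scaled to the size of its library after TMM normalization, and group values as the mean ± SD of 5 tumors. Cda, the targeted gene (ENSMUSG00000028755), did not separate the labels: it stood at 10.1, 11.7, 12.8, 14.7 and 11.1 CPM in sgNT replicates 1 to 5 and at 8.34, 8.43, 12.1, 7.47 and 12.5 CPM in sgCda replicates 1 to 5. Its log2 fold change was −0.30 with an SE of 0.17 (95% confidence interval −0.67 to 0.064, edgeR unadjusted p = 0.0963), with an adjusted p of 0.9996. Without sgCda replicate 3 it was −0.39 (edgeR unadjusted p = 0.0376, adjusted p 0.819), where 4.86% of all genes had an unadjusted p under 0.05. Without sgCda replicate 5 it was −0.41 (edgeR unadjusted p = 0.0347, adjusted p 0.998), where 3.66% did. The sign of Cda was negative in all 19 alternatives run. Counts of the whole gene in whole tumor tissue do not show whether the guide had edited Cda. The authors checked silencing by RT–qPCR and western blot, and they report Cda transcript in endothelial cells and fibroblasts of mouse tumors as well. The epithelial keratins Krt8 (353 to 645 CPM) and Krt18 (157 to 325 CPM) were high in every tumor, while Epcam (0.911 to 3.43 CPM) and Krt7 (0.190 to 2.42 CPM) were low, though above the 0.076 to 0.107 CPM that 3 counts are worth, and of 4 pancreatic acinar genes Prss2, Cpa1 and Pnlip did not pass 0.163 CPM and Cela1 ran from 0.956 to 2.97 CPM. The sgCda replicate 4 library had the largest share of mitochondrial counts, 5.82% against 3.47% to 3.81% in the other 9, and sgCda replicates 3 and 4 lay at the ends of the first principal component of all genes.

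No member passed the test for a difference between sgCda and sgNT tumors, and the values of both groups overlapped in each. With edgeR's quasi-likelihood test 0 of the 40 members had an adjusted p under 0.05, where 0% of the 15299 genes tested did, and the adjusted p was 0.9996 for each. At an unadjusted p under 0.05 there were also 0 members, against 2.5% of all genes tested (382 genes), and in 0 members did the values of the groups of 5 not overlap, against 0.601% of all genes (92 genes). DESeq2's Wald test and limma-voom likewise gave 0 members at an adjusted and 0 at an unadjusted p under 0.05. Of the 40, 37 had a negative and 3 a positive log2 fold change (sgCda minus sgNT), all between −0.24 and 0.014, with a median of −0.078 beside 0.0078 over all genes tested. The median was −0.042 for the S phase genes and −0.11 for the mitosis genes. These signs are not 40 separate observations, because the members varied together, and single tumors moved them. Without sgCda replicate 3 the median was −0.19, 0 members were positive, and Kif20a, Mcm6, Plk1 and Bub1b were at an unadjusted p under 0.05 (edgeR, smallest adjusted p 0.819), beside 747 of all genes tested (4.86%). Without sgCda replicate 5 these were Cenpf and Nusap1, beside 567 of all genes (3.66%), and without sgNT replicate 4 the median was −0.017 and 14 members were positive. The standard error of a member's log2 fold change had a median of 0.14, and the 95% confidence intervals ran at their widest from −34.8% (Kif20a) to 31.9% (Ccne1). Many intervals were narrower, such as −14.8% to 17.9% for Kif23 and −20.2% to 7.70% for Nusap1.

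**Figure D1:**
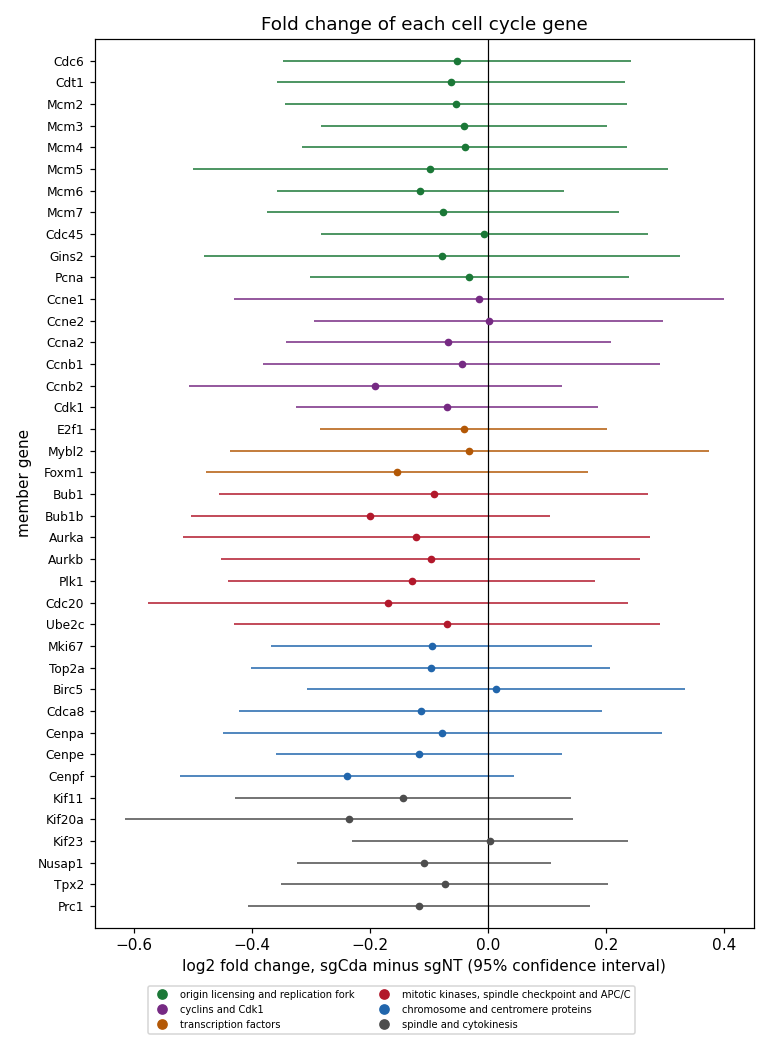
Log2 fold change of each of the 40 genes, sgCda minus sgNT (x axis), with bars for the 95% confidence interval of edgeR's quasi-likelihood fit (5 tumors a group) and colors for the role of the gene. All 40 bars cross 0, and 37 of the 40 points lie below it.

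Among the genes that license origins and run the replication fork, none stood apart between groups. All 11 had a negative log2 fold change, from −0.12 to −0.0065, with a median of −0.054. Pcna (ENSMUSG00000027342; chromosome 2, 132249162 to 132253314, minus strand, GRCm38), the sliding clamp of DNA polymerase, was the most abundant member per length, at 113 CPM per kb of exon. It was measured at 247, 243, 287, 315 and 278 CPM in sgNT and at 253, 253, 340.5, 209.6 and 284 CPM in sgCda replicates 1 to 5. Both the lowest value (replicate 4) and the highest (replicate 3) belonged to sgCda tumors, so the sgNT range lay inside the sgCda range. On the log2 scale the difference was −0.032 with an SE of 0.12 (95% confidence interval −0.30 to 0.24, edgeR unadjusted p = 0.80), and it turned positive when sgNT replicate 4 (0.018) or sgCda replicate 4 (0.047) was left out.

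Mcm6 (ENSMUSG00000026355; chromosome 1, 128331590 to 128359664, minus strand), a subunit of the replicative helicase, had the smallest p of the licensing genes. Its levels were 196, 224, 213, 255 and 209 CPM in sgNT replicates 1 to 5 and 194, 185, 254, 169 and 211 CPM in sgCda replicates 1 to 5. The highest tumor of each group stood at nearly the same level, and sgCda replicate 4 was lowest. Mcm6 had a log2 fold change of −0.12 with an SE of 0.11 (95% confidence interval −0.36 to 0.13, edgeR unadjusted p = 0.319). The other helicase subunits, Mcm2, Mcm3, Mcm4, Mcm5 and Mcm7, had log2 fold changes between −0.098 and −0.040. Mcm5 had the widest range of all members, 2.19-fold from 86.2 CPM in sgCda replicate 4 to 189 CPM in sgCda replicate 3.

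Cdc6, Gins2 and Cdt1 had the lowest levels per length of the licensing genes. Cdc6 averaged 23.8 ± 2.53 (sgNT) and 22.9 ± 4.90 CPM (sgCda), and Cdt1 38.01 ± 5.70 (sgNT) and 36.4 ± 6.85 CPM (sgCda). Cdc45, which joins the helicase when an origin fires, averaged 42.99 ± 5.67 (sgNT) and 42.8 ± 7.40 CPM (sgCda). Gins2, a subunit of the GINS complex that completes the active helicase, was lowest in sgCda replicate 4 at 15.8 CPM, where the other 9 tumors held 22.7 to 33.9 CPM. Gins2 shares 2758 exonic bases with Gse1 on the opposite strand, and the strand setting of the counting is not given in the sources used here, so its value is uncertain. Mcm7 likewise shares 385 bases with Cops6 and Ap4m1 on the opposite strand and 172 bases with the microRNA genes Mir25 and Mir93 on its own. The same caution holds for Ccne2 (609 bases shared with Ints8), Ccna2 (510 bases with Exosc9), Nusap1 (172 bases with Oip5) and Cdc20 (53 bases with Elovl1), all on the opposite strand. It holds too for Cdca8 (232 bases with 9930104L06Rik), Cdc45 (209 bases with Ufd1) and Plk1 (156 bases with Gm44985), also on the opposite strand. On their own strand Foxm1 shares 241 bases with Tex52 and Gm44596, and Top2a shares 122 bases with Gm23451.

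Cyclins and Cdk1 gave the same picture. Cyclin A2 (Ccna2, ENSMUSG00000027715; chromosome 3, 36564865 to 36572150, minus strand), the cyclin of S phase and early mitosis, was the most abundant of them per length, at 35.5 CPM per kb of exon. The 5 sgNT tumors held 134, 149, 143, 174 and 141 CPM and the 5 sgCda tumors 132, 109.7, 184, 133 and 149.6 CPM, again with the sgNT values inside the sgCda range. Between groups the log2 fold change was −0.068 with an SE of 0.13 (95% confidence interval −0.34 to 0.21, edgeR unadjusted p = 0.601), and it was 0.015 without sgCda replicate 2. Cyclin B2 (Ccnb2, ENSMUSG00000032218; chromosome 9, 70407692 to 70421547, minus strand), a partner of Cdk1 in mitosis, had the smallest p of the group. It was measured at 47.6, 53.5, 59.5, 66.5 and 58.1 CPM in sgNT and 45.1, 44.7, 60.8, 37.4 and 61.7 CPM in sgCda replicates 1 to 5. The sgCda replicates 1, 2 and 4 lay below every sgNT tumor and replicates 3 and 5 above the sgNT mean. Ccnb2 had a log2 fold change of −0.19 with an SE of 0.14 (95% confidence interval −0.51 to 0.13, edgeR unadjusted p = 0.21).

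Cyclin B1 and Cdk1, the pair that triggers entry into mitosis, had close group means. Ccnb1 averaged 60.9 ± 7.59 (sgNT) and 59.03 ± 14.2 CPM (sgCda). Cdk1 averaged 138 ± 12.5 (sgNT) and 131 ± 23.5 CPM (sgCda). The E cyclins, which drive cells from G1 into S phase, differed in how they spread. Ccne1 stood at 32.4 CPM in sgCda replicate 3, and the other 4 sgCda tumors lay between 17.3 and 19.6 CPM. Ccne2 had the most nearly equal group means of the cyclins, 43.4 ± 3.73 (sgNT) and 43.4 ± 8.96 CPM (sgCda).

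Of the transcription factors, E2f1, which drives S phase genes, and Mybl2 and Foxm1, which drive the mitotic wave, all had negative log2 fold changes with a median of −0.042. Foxm1 (ENSMUSG00000001517; chromosome 6, 128362967 to 128376146, plus strand) was the most abundant of the 3 per length and had the smallest p. Its levels in sgNT replicates 1 to 5 were 90.4, 107, 98.8, 129.7 and 98.8 CPM, and in sgCda replicates 1 to 5 they were 86.2, 73.5, 124, 80.1 and 107 CPM. The lowest 3 of the 10 values were sgCda tumors, and sgCda replicate 3 was second only to sgNT replicate 4. This gave a log2 fold change of −0.16 with an SE of 0.15 (95% confidence interval −0.48 to 0.17, edgeR unadjusted p = 0.314). E2f1 averaged 45.96 ± 4.95 (sgNT) and 44.7 ± 6.91 CPM (sgCda), and Mybl2 32.9 ± 6.05 (sgNT) and 32.2 ± 9.32 CPM (sgCda). Mybl2 varied 1.90-fold between its highest tumor, sgCda replicate 3, and its lowest, sgCda replicate 2.

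The mitotic kinases, checkpoint proteins and APC/C genes had the most negative median of the 6 role groups, −0.12, and all 7 members were negative. Bub1b (ENSMUSG00000040084; chromosome 2, 118598211 to 118641591, plus strand), the checkpoint protein BubR1 that holds the APC/C inactive, had the smallest p among them. Its 5 sgNT values were 79.5, 102, 89.2, 107 and 92.03 CPM, and its 5 sgCda values were 75.4, 69.6, 105, 64.2 and 95.3 CPM. Replicates 1, 2 and 4 of the sgCda tumors were below all sgNT tumors, whereas replicates 3 and 5 were above the sgNT mean. Bub1b had a log2 fold change of −0.20 with an SE of 0.14 (95% confidence interval −0.50 to 0.10, edgeR unadjusted p = 0.176). Cdc20 (ENSMUSG00000006398; chromosome 4, 118432901 to 118437352, minus strand), the APC/C activator that the checkpoint blocks, was the most abundant of the group per length, at 41.7 CPM per kb of exon. Cdc20 measured 67.8, 81.7, 79.4, 103 and 80.7 CPM in sgNT and 68.5, 56.4, 97.4, 50.8 and 93.5 CPM in sgCda replicates 1 to 5. The lowest value was sgCda replicate 4 and the highest sgNT replicate 4, a range of 2.03-fold. For Cdc20 the log2 fold change was −0.17 with an SE of 0.19 (95% confidence interval −0.58 to 0.24, edgeR unadjusted p = 0.377).

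Aurora kinase A (Aurka), which acts at spindle poles, averaged 52.9 ± 8.58 (sgNT) and 48.6 ± 13.8 CPM (sgCda). Aurora kinase B (Aurkb), the kinase of the chromosomal passenger complex, averaged 64.8 ± 9.44 (sgNT) and 60.5 ± 15.1 CPM (sgCda). Plk1, the polo-like kinase of mitotic entry and exit, averaged 60.2 ± 7.42 (sgNT) and 55.01 ± 12.1 CPM (sgCda), and the checkpoint kinase Bub1 67.8 ± 9.997 (sgNT) and 63.5 ± 16.5 CPM (sgCda). Ube2c, the ubiquitin-conjugating enzyme of the APC/C, averaged 111 ± 19.9 (sgNT) and 106 ± 24.7 CPM (sgCda). In each of these 5 genes the highest tumor was sgCda replicate 3. Ube2c shares 592 exonic bases on the opposite strand with Tnnc2, a skeletal muscle gene, and the summed level of 6 skeletal muscle markers ran from 1.26 to 447 CPM in sgNT and from 1.30 to 1804 CPM in sgCda tumors, where sgCda replicate 3 was highest. Whether this overlap altered the count of Ube2c was not tested.

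Among chromosome and centromere proteins the log2 fold changes ran from −0.24 to 0.014, and 6 of 7 were negative. Mki67 (ENSMUSG00000031004; chromosome 7, 135689784 to 135716361, minus strand) encodes Ki-67, the nuclear protein used in pathology to count dividing cells. It was measured at 435, 538, 396, 481 and 405 CPM in sgNT and 417, 316, 489, 429 and 459.8 CPM in sgCda replicates 1 to 5. The highest tumor was sgNT replicate 2, which was not the highest tumor of most members, and the lowest was sgCda replicate 2. Ki-67 transcript thus differed by a log2 fold change of −0.096 with an SE of 0.12 (95% confidence interval −0.37 to 0.18, edgeR unadjusted p = 0.454). Top2a (ENSMUSG00000020914; chromosome 11, 98992943 to 99024189, minus strand), the topoisomerase that untangles sister chromatids, was the second most abundant member per length, at 70.3 CPM per kb of exon. Its values were 576, 698, 608, 797 and 596 CPM in sgNT and 571, 477, 767, 552 and 695 CPM in sgCda replicates 1 to 5. The groups overlapped over most of their range, with a log2 fold change of −0.097 with an SE of 0.14 (95% confidence interval −0.40 to 0.21, edgeR unadjusted p = 0.496).

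Cenpf (ENSMUSG00000026605; chromosome 1, 189640606 to 189688086, minus strand), a large kinetochore protein made in G2, had the smallest p of all 40 members. The sgNT tumors held 209.8, 275, 200.3, 237 and 191 CPM and the sgCda tumors 196, 144, 192, 183 and 228 CPM, in the order of replicates 1 to 5. Only sgCda replicates 2 and 4 were below the lowest sgNT tumor, and sgCda replicate 5 was above the sgNT mean. The log2 fold change was −0.24 with an SE of 0.13 (95% confidence interval −0.52 to 0.044, edgeR unadjusted p = 0.0897), and the adjusted p was 0.9996. Birc5 (survivin), a subunit of the chromosomal passenger complex, had the highest log2 fold change of the members, 0.014, with means of 82.4 ± 12.96 (sgNT) and 83.2 ± 16.8 CPM (sgCda). Its partner in that complex, Cdca8 (borealin), averaged 48.6 ± 5.003 (sgNT) and 44.8 ± 10.1 CPM (sgCda). Cenpa, the histone that marks centromeres, averaged 89.2 ± 13.4 (sgNT) and 84.5 ± 21.5 CPM (sgCda), and Cenpe, a kinesin of the kinetochore, 109 ± 12.7 (sgNT) and 100.3 ± 13.9 CPM (sgCda).

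In the spindle and cytokinesis group 5 of 6 log2 fold changes were negative, with a median of −0.11. Kif20a (ENSMUSG00000003779; chromosome 18, 34624613 to 34633277, plus strand), a kinesin of the central spindle, had the smallest p. It measured 62.3, 86.2, 68.9, 90.9 and 74.3 CPM in sgNT and 59.1, 53.1, 85.9, 46.8 and 79.8 CPM in sgCda replicates 1 to 5, with replicates 1, 2 and 4 of sgCda below every sgNT tumor and replicates 3 and 5 above the sgNT mean. The log2 fold change was −0.24 with an SE of 0.17 (95% confidence interval −0.62 to 0.14, edgeR unadjusted p = 0.198). Kif20a shares 1271 exonic bases with Cdc23 on the opposite strand. Nusap1 (ENSMUSG00000027306; chromosome 2, 119618298 to 119651244, plus strand), which bundles spindle microtubules, was the most abundant of the group per length, at 27.02 CPM per kb of exon. Its values were 107, 119.9, 112, 119 and 111 CPM in sgNT, the narrowest sgNT range of the members, and 104, 87.9, 110.3, 94.3 and 131 CPM in sgCda replicates 1 to 5. The log2 fold change of Nusap1 was −0.11 with an SE of 0.098 (95% confidence interval −0.32 to 0.11, edgeR unadjusted p = 0.291).

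The 4 other genes of the spindle group overlapped between groups as well. Kif11, the motor that pushes spindle poles apart, averaged 182 ± 19.7 (sgNT) and 165 ± 32.3 CPM (sgCda). Kif23, a motor of the cytokinetic midbody, had close means, 68.5 ± 6.54 (sgNT) and 68.7 ± 10.3 CPM (sgCda). Tpx2, the activator of Aurora A on the spindle, averaged 128 ± 15.1 (sgNT) and 122 ± 22.4 CPM (sgCda), and Prc1, which bundles the central spindle, 155 ± 20.9 (sgNT) and 143 ± 26.6 CPM (sgCda). Prc1 shares 911 exonic bases with Rccd1 on the opposite strand.

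Per length of exon, the level of the members ran from 4.47 CPM per kb (Cdc6) to 113 CPM per kb (Pcna), with a median of 20.3 CPM per kb. After Pcna and Top2a came Mcm6 (45.2), Mki67 (43.4), Cdc20 (41.7) and Ube2c (41.6), whose SDs overlapped. The lowest before Cdc6 were Mybl2 (7.03) and Gins2 (6.80), which overlapped too.

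**Figure D2:**
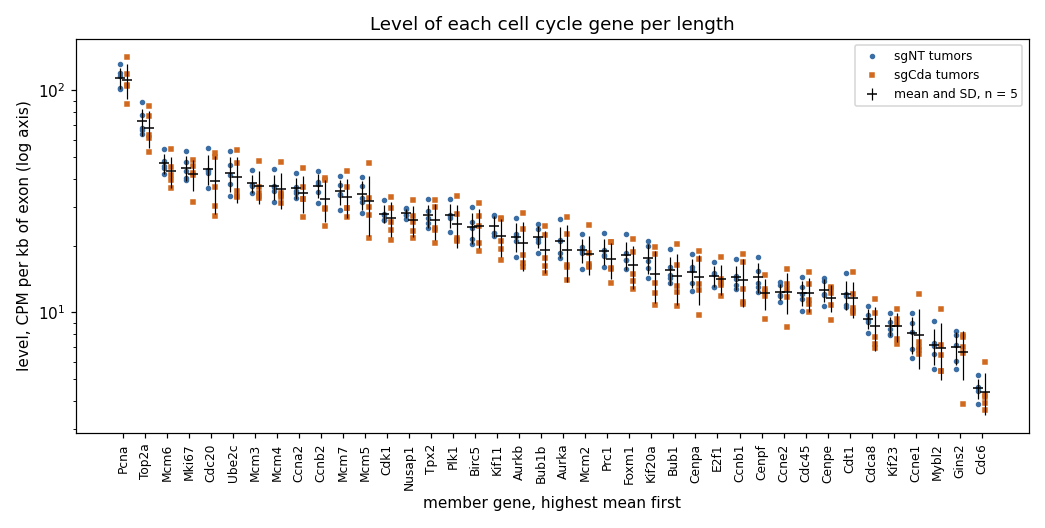
Level of each of the 40 genes per length (y axis, CPM per kb of exon, log axis), ordered from the highest mean to the lowest (x axis). Circles and squares are single sgNT and sgCda tumors, and black marks the mean and SD of each group (n = 5). Pcna, at 113 CPM per kb, and Top2a, at 70.3 CPM per kb, stand above the rest, and the groups overlap in every gene.

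The members differed more between tumors of a group than between the groups. Averaged over the 40 members, the deviation of log2 CPM from the mean of the 10 tumors was −0.15, 0.039, 0.036, 0.30 and 0.034 in sgNT replicates 1 to 5 and −0.15, −0.29, 0.33, −0.28 and 0.12 in sgCda replicates 1 to 5. The group means were 0.053 ± 0.16 (sgNT) and −0.053 ± 0.27 (sgCda) (SD, n = 5 each), so the difference was smaller than either SD. Both ends of the range were sgCda tumors, with replicate 3 at the top and replicates 2 and 4 at the bottom. The highest of the 10 tumors was sgCda replicate 3 for 25 members, sgNT replicate 4 for 11, sgNT replicate 2 for 3 (Mki67, Cenpf and Kif11) and sgCda replicate 5 for Nusap1. The lowest was sgCda replicate 2 for 22 members, sgCda replicate 4 for 16 and sgNT replicate 1 for the remaining 2, Mcm2 and Ccne1. In sgNT replicate 4 all 40 members stood above their 10-tumor mean, and in sgCda replicate 3 it was 39. It was 3 each in sgNT replicate 1 and sgCda replicate 4, and 1 each in sgCda replicates 1 and 2. From the lowest to the highest tumor the members differed 1.44-fold (Kif23) to 2.19-fold (Mcm5), with a median of 1.66-fold. The SD of log2 CPM had a median of 0.18 over the members in sgNT and 0.28 in sgCda tumors, and over all genes tested it was 0.16 and 0.23.

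**Figure D3:**
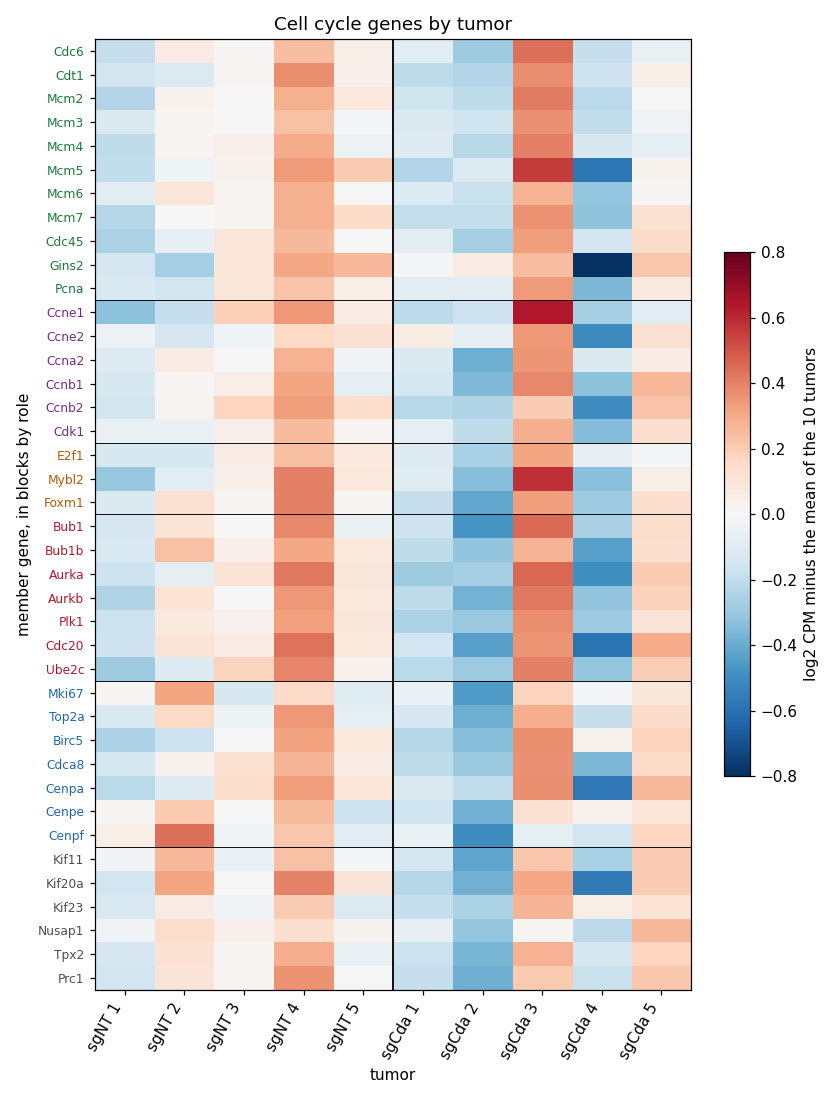
Log2 CPM of each of the 40 genes (rows, in blocks by role) in each of the 10 tumors (columns) minus the gene's mean over the 10 tumors, as color from −0.8 (blue) to 0.8 (red), with a line between sgNT and sgCda tumors. Whole columns share a color: sgNT 4 is above 0 in all 40 rows and sgCda 3 in 39, all but Cenpf. The columns of sgNT 1, sgCda 1, sgCda 2 and sgCda 4 are mostly blue.

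The members varied together across tumors. Over the 780 pairs of members, Pearson's r of log2 CPM over the 10 tumors had a median of 0.85, against −0.001 over all pairs of the genes tested, and 2 pairs were negative, Gins2 with Mki67 and Gins2 with Cenpe. A single principal component held 81.5% of the variance of the 40 genes. These correlations are descriptions, since all genes of a tumor share its library and scaling. The median r was 0.90 within the S phase genes, 0.87 within the mitosis genes and 0.82 between them, and it was 0.85 over all members without sgCda replicates 3 and 4 (8 tumors). Aurkb and Plk1 followed the mean of the other members most closely (r = 0.99 for each), and Cenpf (0.51), Mki67 (0.62), Gins2 (0.64) and Cenpe (0.66) least. Cenpf, Mki67 and Cenpe have 15433, 10061 and 8620 exonic bases, and Gins2 has 4097. Top2a (9013 bases, r = 0.93), longer than Cenpe, and Prc1 (8225 bases, 0.94), shorter than Cenpe, followed the others closely. In sgNT replicate 2, where Cenpf and Mki67 peaked, longer members stood higher (Spearman's rho 0.54 across the 40 members, 0.31 across 14709 genes). Other tumors had trends with length in either direction. Across the members rho was 0.41, 0.54, −0.55, −0.29 and −0.51 in sgNT replicates 1 to 5. In sgCda replicates 1 to 5 it was 0.32, −0.37, −0.40, 0.33 and −0.028. The part of transcript length in this was not tested.

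The highest 2 tumors were sgCda replicate 3 and sgNT replicate 4 for both S phase and mitosis genes, whereas the lowest was sgCda replicate 4 for the S phase and sgCda replicate 2 for the mitosis genes. The mean deviation of the 15 S phase genes was −0.18, −0.062, 0.046, 0.29 and 0.074 in sgNT replicates 1 to 5 and −0.12, −0.18, 0.40, −0.30 and 0.038 in sgCda replicates 1 to 5. For the 25 mitosis genes it was −0.12, 0.099, 0.029, 0.31 and 0.010 and −0.17, −0.35, 0.29, −0.27 and 0.17 in the same order. The mitosis mean exceeded the S phase mean most in sgNT replicate 2 (by 0.16) and sgCda replicate 5 (by 0.14), and it was below it most in sgCda replicate 2 (−0.17) and sgCda replicate 3 (−0.11). The difference between the means averaged 0.032 ± 0.085 (sgNT) and −0.032 ± 0.12 (sgCda) (SD, n = 5 each), which overlapped.

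**Figure D4:**
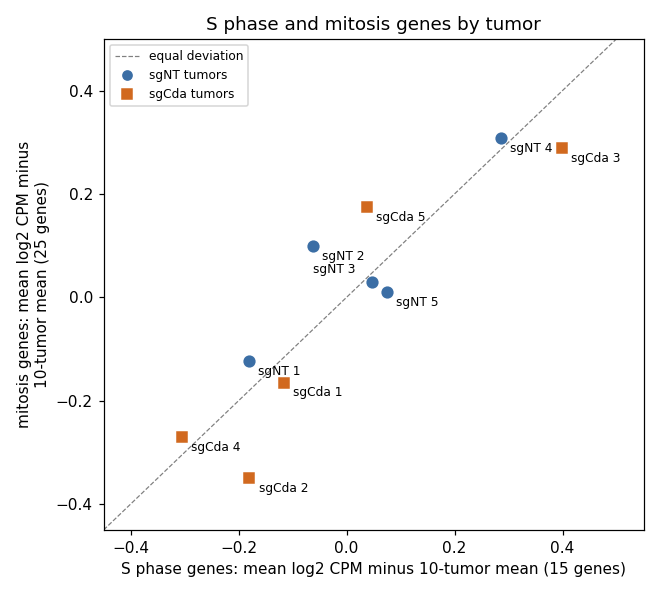
Mean deviation of log2 CPM from the 10-tumor mean for the 15 S phase genes (x axis) and the 25 mitosis genes (y axis), 1 point per tumor, circles for sgNT and squares for sgCda, with a dashed line where both are equal. The tumors lie along the line from sgCda 2 and sgCda 4 at the lower left to sgNT 4 and sgCda 3 at the upper right, and the groups are mixed along it.

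Other tissue in the tumors differed in the same libraries. In the 2 tumors where the members were highest, sgNT replicate 4 and sgCda replicate 3, the sum of 6 skeletal muscle markers was 447 and 1804 CPM, against 1.26 to 442 CPM in the other 8 tumors, and the sum of 4 neutrophil markers was 51.5 and 49.2 CPM, against 77.9 to 121 CPM. The muscle sum of 442 CPM, close to that of sgNT replicate 4, was in sgCda replicate 1, where the member mean was −0.15. In sgCda replicate 2, with a member mean of −0.29, the muscle sum was 256 CPM. The sum of 6 T cell markers differed between these 2 tumors, at 252 CPM in sgNT replicate 4 and 557 CPM in sgCda replicate 3, with 159.5 to 374 CPM in the other 8. For 4 keratinocyte markers the sums were 17.4 and 3.39 CPM in the same order, and 3.39 to 5.49 CPM in the other 8. For 4 endothelial markers the sums were 105 CPM (sgNT replicate 4) and 97.9 CPM (sgCda replicate 3), and 54.8 to 99.7 CPM in the other 8. The sum of 6 epithelial markers was 591, 765, 777, 923 and 645 CPM in sgNT replicates 1 to 5. In sgCda replicates 1 to 5 it was 657, 568, 726, 608 and 1016 CPM. Where the members were low, sgCda replicate 2 had the lowest epithelial sum and the highest sum of 4 adipocyte markers (98.4 CPM). The other low tumor, sgCda replicate 4, had the high mitochondrial share given above and the most reads outside genes, 18.4% against 10.3% to 14.9%. Between groups, the mean was higher in sgCda tumors for 6 of 6 skeletal muscle, 6 of 6 T cell, 4 of 4 neutrophil and 3 of 6 epithelial markers. Without sgCda replicate 3 it was higher for 6 of 6, 1 of 6, 4 of 4 and 3 of 6 in the same order, so the T cell direction rested on that tumor. Among the other cell type markers, with all tumors, it was higher for 0 of 4 endothelial, 1 of 6 fibroblast and 2 of 6 macrophage markers. It was higher for 0 of 4 keratinocyte, 1 of 4 erythroid and 2 of 4 adipocyte markers. Of B cell and of pancreatic acinar markers 3 of 4 each were higher. Without sgCda replicate 3, fibroblast markers became 3 of 6, erythroid 0 of 4, adipocyte 3 of 4 and B cell 1 of 4. Of all these markers only Epcam (log2 fold change 0.78) and Cd79a (0.51) were at an unadjusted p under 0.05 (edgeR). The part of these differences in the level of the cell cycle genes was not tested.

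Around the members, 70 further cell cycle genes were listed and 69 were tested, and 0 of them had an unadjusted p under 0.05, against the 2.5% of all genes. Of the 69, 24 had positive and 45 negative log2 fold changes, with a median of −0.027. All 10 listed kinesins and cytokinesis genes were negative (median −0.10), with Anln and Racgap1, which build the contractile ring, at −0.13 and −0.094. The 10 kinetochore and separation genes had a median of −0.052 (8 negative), the 7 other E2F factors −0.018 (5 negative) and the 12 regulators of CDK activation and the APC/C −0.018 (6 negative). The 15 genes of origin recognition, GINS and DNA precursors had a median of 0.0050 (6 negative), among them Rrm2 and Tyms, which make deoxynucleotides, at −0.043 and −0.0047.

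Upstream of the cycle, the 9 G1 cyclins, CDKs and pocket proteins had a median of −0.036 (7 negative). Cyclin D1 (Ccnd1), which carries growth signals to the cell cycle, averaged 541 ± 75.7 (sgNT) and 495 ± 119 CPM (sgCda). Of 7 listed CDK inhibitors 6 were tested, 3 of them positive. The Ink4 genes Cdkn2a and Cdkn2b were low, with a mean of 0.605 and 0.815 CPM over the 10 tumors, and Cdkn1b (p27) averaged 152 CPM. The largest of these log2 fold changes, 0.72 for Cdkn1c, had an SE of 0.67. Of the 69 genes, 40 had r over 0.8 with the mean of the members over the 10 tumors (58.0%), as did 773 of all 15299 genes (5.05%). E2f5, an E2F factor linked to repression, ran opposite to the members (r = −0.81), followed by Orc5 (−0.67) and Pttg1 (securin, −0.53).

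The genes outside these lists whose levels were most like the member mean over the 10 tumors were Igf2bp2, an RNA-binding protein (r = 0.98), Ska3, Nqo1, Eps8, Ncaph, Cenpi, Tubb6, Melk, Chtf18 and Tedc1 (the lowest of them at 0.97). Igf2bp2 stood at 12.9, 14.3, 16.03, 18.9 and 14.98 CPM in sgNT and 13.4, 10.96, 19.7, 10.9 and 16.5 CPM in sgCda replicates 1 to 5, highest in the 2 tumors where the members were highest. Most opposite were Icosl, the ligand of the T cell receptor Icos (r = −0.98), Ypel3, Rasgrp3, Clec9a, a receptor of conventional dendritic cells, and Cd22, a B cell receptor (−0.95). Clec9a ran from 12.4 CPM in sgNT replicate 4 and 12.7 CPM in sgCda replicate 3 to 43.5 CPM in sgCda replicate 2. These 15 genes were picked from all genes for their likeness or opposition, so their r values are a description of these 10 tumors.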

How the data were processed

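The authors made stranded poly(A) libraries from tumor RNA, aligned the reads to mm10 with TopHat and Bowtie and counted them per Ensembl gene with HTSeq (the submitters' processing notes name FastQC 0.11.5, Bowtie2 and HTSeq 07.2). The annotation release and the strand setting are not given in the sources used here. The deposited values are raw counts, 1 column per tumor. HTSeq leaves out reads of more than 1 place or gene, which lowers counts of overlapping genes. The 5 HTSeq summary lines were kept out of library sizes, and reads outside genes made up 10.3% to 18.4%.

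Genes were filtered with filterByExpr (minimum count 10, minimum total 15), which all 40 members passed, and sgCda was compared with sgNT by the quasi-likelihood test of edgeR 4.0.16 (R 4.3.3, TMM) with Benjamini-Hochberg adjustment over the 15299 genes tested. Checked on simulated counts with 200 changed genes, the test recovered 31% of 1.5-fold and 71.5% of 2-fold changes at an adjusted p under 0.05. Changes smaller than 1.5-fold were not simulated. Log2 CPM used a prior count of 2. Exon lengths and positions came from GENCODE (GRCm38). The exon length of a gene was the union of its annotated exons over all transcripts, and not the length of the transcript expressed. The tumors are separate samples, and the labels give no batch.

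Members and gene lists were chosen with earlier results of these data known. Fold changes with error and p were given for Cda, Mki67, Top2a and, in each role group, the member with the smallest p and that of highest level per kb. Likeness was given for the 10 genes most like and the 5 most opposite to the member mean. Alternatives were DESeq2 1.42.0 (size factors, Wald test), limma-voom (limma 3.58.1), library totals, filters of 1 count in any or 10 counts in every tumor, a block on replicate number, leaving out the 20 genes with the highest mean count, and leaving out single tumors. Removal of sgCda replicates 3 and 4 together was chosen after seeing the data. The listed gene Cdkn2d was not matched.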

Additional observations from a re-analysis of the deposited data

Results flagged for a closer look

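In 4 of the 94 groups of 5 values examined, 1 tumor lay far from the others, where a rate of 1 in 20 gives 4.7. Examined in each group of tumors were Cda, each member and the quality measures. The means of all members, of the S phase and of the mitosis genes, and mitosis minus S phase, were examined too. The means are made of the members, and the members varied together, so the 94 are not separate observations. Mcm4 in sgCda replicate 3 stood at 7.42 log2 CPM, and the other 4 sgCda tumors at 6.80 to 6.95. Ccne1 in the same tumor stood at 5.02 log2 CPM, and the others at 4.12 to 4.29. Gins2 in sgCda replicate 4 was at 3.99 log2 CPM, below 4.76 to 5.02 in the others. The share of mitochondrial counts in sgCda replicate 4 was 5.82%, above 3.48% to 3.81% in the other sgCda tumors.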

How the results depend on the processing

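Under the 19 alternatives run, 0 members and 0 genes had an adjusted p under 0.05. The count of all genes at an unadjusted p under 0.05 was 382, became 830 with the filter of 1 count in any tumor, and ran from 280 to 747 when single tumors were left out, highest without sgCda replicate 3. Members at an unadjusted p under 0.05 ran from 0 to 4 over these omissions, with Kif20a, Mcm6, Plk1 and Bub1b past it without sgCda replicate 3 (smallest adjusted p 0.819; 4.86% of all genes) and Cenpf and Nusap1 without sgCda replicate 5 (567 genes, 3.66%). The number of members with a positive log2 fold change was 3, became 0 with the 1-count filter and 1 with limma-voom, and ran from 0 to 14 when single tumors were left out: 14 without sgNT replicate 4, 13 without sgCda replicate 2 and 12 without sgCda replicate 4, but 0 without sgNT replicate 1 or sgCda replicate 3, and 1 without sgNT replicate 2 or sgCda replicate 5. The median log2 fold change of the members ran from −0.19 (without sgCda replicate 3) to −0.017 (without sgNT replicate 4) over these omissions, that of the S phase genes from −0.18 to 0.010 and that of the mitosis genes from −0.20 to −0.040, and without sgCda replicates 3 and 4 the median of the members was −0.17. Among named members, 3 values changed sign: Pcna to 0.018 without sgNT replicate 4 and 0.047 without sgCda replicate 4 (lowest −0.13, without sgCda replicate 3), and Ccna2 to 0.015 without sgCda replicate 2 (lowest −0.18). Of the 40 members 18 kept their sign throughout and 22 did not. The cause was not tested.

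The replicate numbers recur in both groups, and the deviations of same-numbered tumors correlated at r = −0.028, −0.024, 0.33, −0.43 and 0.34 for numbers 1 to 5. Numbers 3 and 5 correlated best with their own number and 1, 2 and 4 did not, so the numbers were not taken as pairs. With the replicate number as a block, 0 members passed, 1 member had a positive log2 fold change, the median of the members was −0.099, and 325 genes were at an unadjusted p under 0.05. With 5 tumors a group, changes within a member's confidence interval were not resolved. Each member had at least 446 counts in every library, and the effect of depth was not tested.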
